A study of Homo sapiens with 9 samples.

Results

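The genes described here are the very long protein-coding genes of the human genome, whose start and end lie at least 500 kb apart. The rule reads only the biotype, the name and the positions listed in the deposited count table. Of the 317 protein-coding genes of that span, 21 were left out by name, namely ALK, RAD51B and names beginning with CDH, PCDH, FAT, COL, ADAM, ABC, ROBO, SLIT, NTN, UNC5, EPHA, SEMA or KIF. This left 296 long genes among the 19951 protein-coding genes and 58735 genes listed. Their RNA was counted in SKOV3 cells, an ovarian cancer cell line, in 3 groups of 3 libraries. WT CDK9 cells expressed wild-type CDK9, ALK inhibitor-treated WT CDK9 cells were the same cells after 24 h of an ALK inhibitor, and Y19F CDK9 cells expressed CDK9 with a phenylalanine in place of tyrosine 19. For other assays the study describes stable lines that carry these CDK9 forms after depletion of the cells' own CDK9. Whether the sequenced cells were those lines was not given in the sources used here. Line and mutation cannot be told apart in any value for Y19F CDK9 cells. The inhibitor and its dose in this experiment were not given in the sources used here.

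CDK9 is the kinase of P-TEFb, which releases RNA polymerase II from its pause near the start of genes and keeps it competent to elongate. A polymerase needs hours to cross the longest genes, so that long genes are a common readout of inhibitors of elongation. Many of the longest human genes code for adhesion molecules, channels and scaffolds of the nervous system, and several of them span common fragile sites, which break when replication is slowed. The question put to these counts was whether the RNA of very long genes fell when ALK was inhibited or tyrosine 19 of CDK9 was replaced. Counts per gene, scaled between libraries, give the amount of RNA relative to other genes and not the position of the polymerase. Elongation itself was thus not measured, and a change shared by all genes would not show in these values.

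The long genes had a median span of 719 kb, the longest 2474 kb, and 61 of them spanned at least 1000 kb. Little of that span was exon, a median of 1.21% against 15.8% over all protein-coding genes. The GENCODE 44 canonical transcript of the long genes held a median of 17 exons and a longest intron of 198 kb, against 8 exons and 7.85 kb over all protein-coding genes. All 296 were found on the same chromosome within 1 Mb in that annotation, and 234 had a canonical transcript that itself spanned at least 500 kb. Just outside the limit were DIAPH3, CACNA2D1 and RPS6KA2 with spans of 497.1 to 498.4 kb, and just inside it AFF2, SPOCK3 and KCNAB1 with 500.04 to 501.4 kb.

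Total counts per library were 18169050 to 29320184, and those of Y19F CDK9 cells were the deepest. Replicate 2 of the ALK inhibitor-treated cells and replicate 3 of Y19F CDK9 cells had fewer genes with a count than the other libraries of their groups, 19944 and 20635. The epithelial markers KRT7 and KRT8 had at least 1224 CPM (counts scaled to 1000000 per library, for markers by the library total and for all other genes after edgeR's TMM scaling) in every library, and PAX8 258 to 283 CPM. Of the other epithelial markers, ERBB2 had 1382 to 2654 CPM, KRT18 128 to 185 CPM, KRT19 100 to 308 CPM and EPCAM only 9.78 to 23.0 CPM. DCN, LUM, PECAM1, PTPRC, CD3E and CD14, which mark fibroblasts, endothelium and blood cells, had at most 7 counts in any library, and VWF of endothelium 1 to 17. SNAP25, a neuronal marker, had 0 counts in every library, RBFOX3 at most 4 and SYP 16 to 56, whereas MAP2 had 20.1 to 55.2 CPM. CDK9 RNA was 47.6 to 49.6 CPM in WT CDK9 cells, 43.7 to 47.2 CPM with the inhibitor and 52.3 to 59.5 CPM in Y19F CDK9 cells. These counts do not separate the introduced from the endogenous gene.

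Of the 296 long genes, 171 passed edgeR's filter on low counts and were tested, 57.8% against 65.9% of protein-coding genes. Of these 171, 127 had a canonical transcript of at least 500 kb. The 125 that did not pass included 47 with no count in any library, and the others had at most 76 counts summed over the 9 libraries. The tested long genes were expressed at low levels, with a median of 0.902 RPKM (CPM per kilobase of listed exonic length) against 5.65 RPKM over the tested protein-coding genes. The highest by this measure, which allows levels to be compared between genes, were DLC1 (25.1 RPKM) and the receptor-type phosphatase PTPRK (21.9 RPKM). They were followed by the polarity scaffold PARD3 (21.2 RPKM), the pyrimidine catabolic enzyme DPYD (17.2 RPKM), the phosphatase PTPRM (16.9 RPKM), the transcription factor MECOM (16.05 RPKM), protein kinase C alpha, PRKCA (13.7 RPKM), and the guanine nucleotide exchange factor DOCK1 (13.6 RPKM).

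The long genes together took 0.499%, 0.489% and 0.515% of the counts in the WT CDK9 libraries. They took 0.502%, 0.4999% and 0.490% with the ALK inhibitor, and 0.469%, 0.448% and 0.451% in Y19F CDK9 cells. The means were 0.501% ± 0.0132 (SD, n = 3), 0.497% ± 0.00601 (SD, n = 3) and 0.456% ± 0.0114 (SD, n = 3). All Y19F CDK9 libraries lay below all WT CDK9 libraries, and the inhibitor-treated libraries overlapped with them. No test was made, since the long genes were chosen with earlier results of these data known. The smallest two-sided p that exact permutation of so few libraries allows is 0.1. In these bulk samples fewer cells with a transcript and less of it per cell cannot be told apart.

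In ALK inhibitor-treated WT CDK9 cells, few long genes changed. Genes were called at an adjusted p under 0.05 (edgeR's quasi-likelihood test, Benjamini-Hochberg over all 16350 tested genes). Of the 171 tested long genes, 7 were called lower (4.09%), where 2.73% of all tested genes were, and 5 higher (2.92%), where 1.82% of all tested genes were. The 5 higher calls became 1 without WT replicate 1, 2 without WT replicate 2, ALK inhibitor replicate 1 or ALK inhibitor replicate 3, and 3 without ALK inhibitor replicate 2. The median log2 fold change of the long genes was -0.0062 and that of all tested genes -0.0010, and 87 of the 171 lay below 0. The inhibitor libraries lay wholly below the WT CDK9 libraries for 19 long genes, 11.1% against 10.3% of all tested genes, and wholly above for 21, 12.3% against 9.31%.

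In Y19F CDK9 cells, 37 of the tested long genes were called lower, 21.6% against 10.4% of all tested genes. A further 16 were called higher, 9.36% against 7.61%, and 10 without Y19F replicate 1. Their median log2 fold change was -0.13, with quartiles of -0.38 and 0.21, against a median of 0.0035 over all tested genes, and 111 of the 171 lay below 0. All Y19F CDK9 libraries lay below all WT CDK9 libraries for 52 long genes, 30.4% against 17.2% of all tested genes, and above for 19, 11.1% against 15.4%. Of tested protein-coding genes alone, 12.4% were called lower and 8.95% higher. Of the 37 long genes called lower, 26 were called in every fit with 1 library left out, and of the 16 called higher, 9 were. The WT CDK9 libraries are shared by this comparison and the preceding one.

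The direct comparison of Y19F CDK9 cells with ALK inhibitor-treated cells called 34 of the 171 long genes lower, 19.9% against 11.1% of all tested genes, and 16 higher, 9.36% against 9.57%. Without ALK inhibitor replicate 3, 9 were called higher. The median log2 fold change was -0.17, and 106 genes lay below 0.

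**Figure D1:**
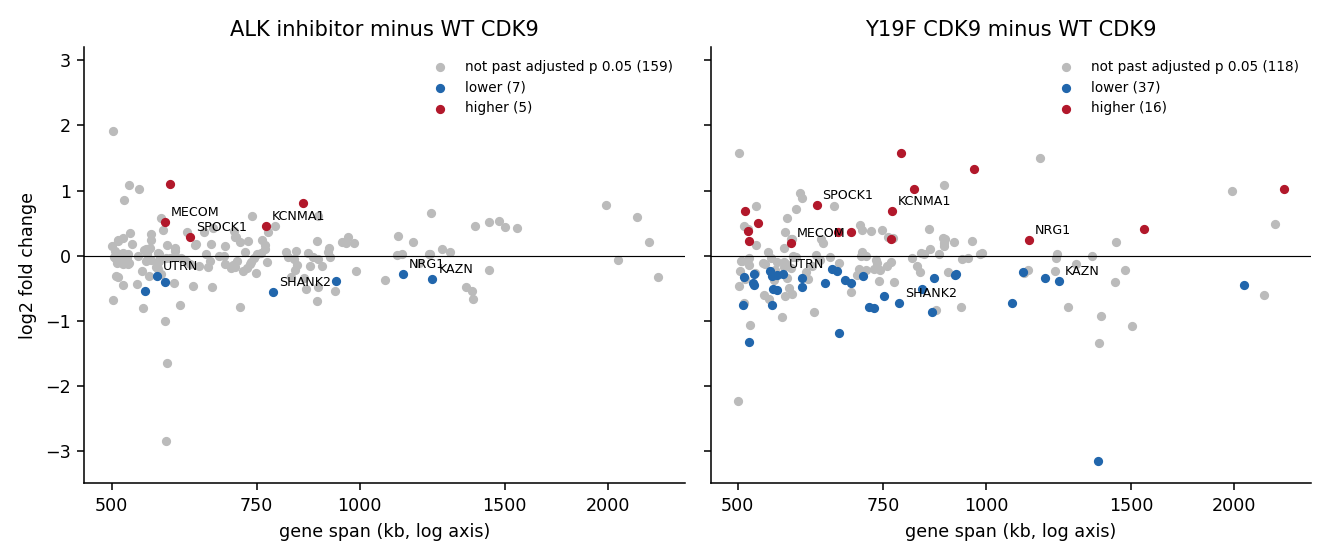
Log2 fold change (vertical axis) of the 171 tested long genes against gene span in kb (log axis), for the ALK inhibitor minus WT CDK9 and for Y19F CDK9 minus WT CDK9, with genes past an adjusted p of 0.05 in blue (lower) and red (higher). With the inhibitor 7 and 5 genes are coloured, with Y19F CDK9 37 and 16, and the names mark the 7 genes coloured in both panels.

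The fall in Y19F CDK9 cells was graded over gene span. Among tested protein-coding genes, the share called lower was 6.95% of the 2445 genes under 10 kb, 9.33% of the 5721 genes of 10 to 50 kb and 14.4% of the 2330 genes of 50 to 100 kb. It was 21.8% of the 1625 genes of 100 to 200 kb and 23.7% of the 840 genes of 200 to 500 kb. The long genes, at 21.6%, lay close to these last classes, from which they were not tested to differ. Their median level was lower, however, at 9.48 CPM against 37.3 CPM at 100 to 200 kb and 23.7 CPM at 200 to 500 kb. Among genes of at least 10 CPM, 41.0% of the 83 long genes were called lower, against 27.0% at 100 to 200 kb and 31.5% at 200 to 500 kb. The shares called higher at that level were 15.7%, 6.41% and 7.32% in the same order. The medians of the log2 fold change over the same classes were 0.05, 0.02, -0.03, -0.06 and -0.11, followed by -0.13 for the long genes. The share called higher ran from 11.1% under 10 kb to 5.95% at 200 to 500 kb, and was 9.36% for the long genes. With the inhibitor, the class medians stayed between -0.0062 and 0.01, and the share called lower ran from 2.09% under 10 kb to 4.40% at 200 to 500 kb.

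Other properties moved with span. The median GC content of exons was 56.6% under 10 kb and 44.5% in the long genes, and the median exonic length 2743 and 11165 bases. Across the 13145 tested protein-coding genes, which are not independent, the Spearman correlation of the Y19F log2 fold change was -0.17 with span, -0.13 with exonic length and 0.15 with GC content. Span itself had a Spearman correlation of 0.62 with exonic length and -0.38 with GC content. Among genes with a GC content of up to 43.7%, 11.1% of genes under 10 kb and 21.1% of the 76 long genes were called lower. Between 43.7% and 54.1% GC, 6.01% of genes under 10 kb and 16 of the 80 long genes were. Above 54.1% GC, 5 of the 15 long genes were lower and 3 higher, while genes of 200 to 500 kb were called lower and higher alike, at 18.1% and 17.02%, with a median log2 fold change of -0.01. In the highest of 3 classes of exonic length, from 6638 bases, 23.0% of the 135 long genes were called lower, against 28.4% at 200 to 500 kb and 5.36% under 10 kb. In the middle class, from 3909 bases, 4 of the 28 long genes were lower, and the shares did not rise steadily with span (6.57% under 10 kb, 16.2% at 100 to 200 kb and 10.3% at 200 to 500 kb). In the lowest class 2 of 8 long genes were lower. With the trends of each library with exonic length and GC content removed, an alternative chosen after seeing the data, the class medians were -0.0046, 0.0092, -0.0054, -0.02, -0.06 and -0.08, and 32 long genes were called lower and 16 higher. The part of GC content and exonic length in the remaining gradient was not tested.

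**Figure D2:**
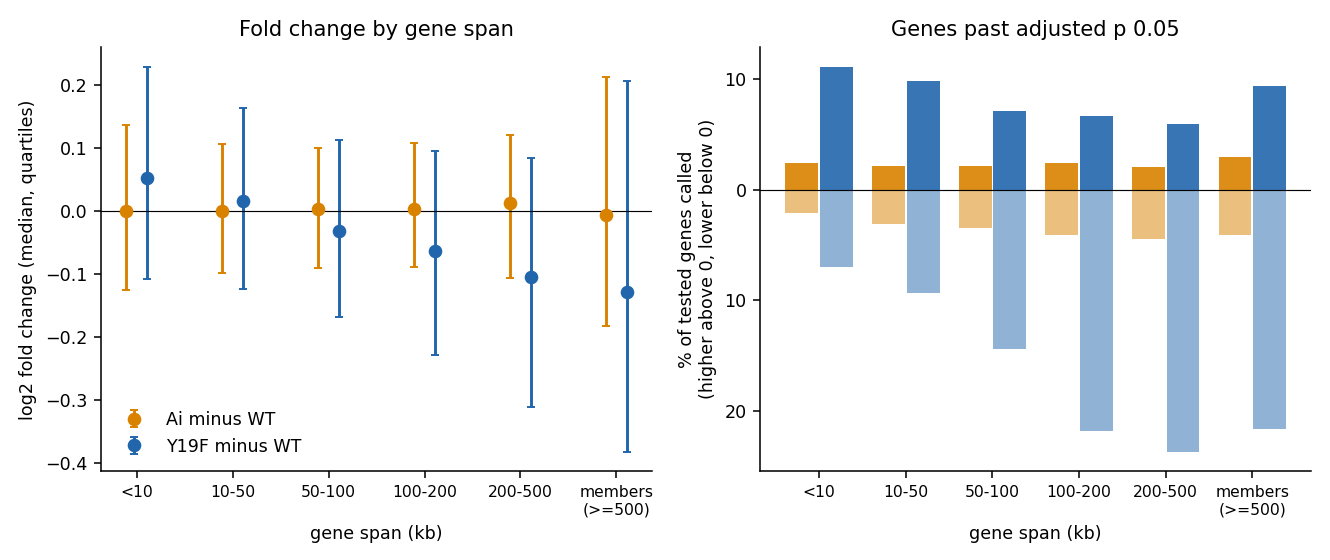
Left, median log2 fold change with quartiles (bars) of tested protein-coding genes in classes of span (kb), for the ALK inhibitor (orange) and Y19F CDK9 (blue) against WT CDK9. Right, percent of each class called higher (above 0, dark) or lower (below 0, pale); the blue pale bars deepen from 6.95% under 10 kb to 23.7% at 200 to 500 kb and 21.6% for the long genes.

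Among the long genes the medians did not fall steadily with span. Of the 105 tested genes of 500 to 750 kb, 24 were called lower and 8 higher in Y19F CDK9 cells, with a median log2 fold change of -0.18. Of the 39 of 750 to 1000 kb, 7 were lower and 5 higher with a median of 0.03, and of the 27 of at least 1000 kb, 6 were lower and 3 higher with a median of -0.24. The Spearman correlation of fold change with span was 0.07 over the 171 genes. More genes were called at higher levels. Under 1 CPM, 1 of 27 long genes was called lower (3.70%, against 1.08% of all tested genes at that level). At 1 to 10 CPM, which held 61 long genes, 2 were called lower (3.28% against 4.53%) and 3 higher, with a median log2 fold change of -0.02. At 10 to 30 CPM, 12 of 36 were called lower (33.3% against 8.19%) and 6 higher (16.7% against 8.32%). At 30 CPM or more, 22 of 47 were called lower (46.8% against 18.4%). At 30 CPM or more, 7 of the 47 were called higher (14.9% against 12.03%).

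The longest tested genes did not move one way. PTPRD, a receptor-type tyrosine phosphatase of 2298 kb and the longest tested, rose in Y19F CDK9 cells. MACROD2, a mono-ADP-ribosylhydrolase of 2058 kb, had 29.6, 26.6 and 27.4 CPM in WT CDK9 cells, 27.0, 27.9 and 25.1 CPM with the inhibitor and 18.3, 22.4 and 20.5 CPM in Y19F CDK9 cells. It fell by 0.45 on the log2 scale in Y19F CDK9 cells (SE, the standard error, of 0.10, adjusted p = 0.0021 by edgeR), with no overlap of the groups, and had -0.06 with the inhibitor. PDE4D, a cyclic AMP phosphodiesterase of 1553 kb, was called higher in Y19F CDK9 cells (log2 fold change 0.40, adjusted p = 0.0351 by edgeR). That call was lost without WT replicate 1 (adjusted p = 0.191), without WT replicate 2 (0.0559), without Y19F replicate 1 (0.159) and without Y19F replicate 2 (0.131).

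DMD, the dystrophin gene of 2242 kb, had 2.21 to 2.66 CPM in WT CDK9 cells and 2.31 to 4.33 CPM in Y19F CDK9 cells, which overlapped. The scaffold gene DLG2, the photoreceptor gene EYS, the fragile site gene FHIT and CCSER1, of 1474 to 2173 kb, had mean levels of 0.382 to 0.878 CPM. None of these 5 was called in either comparison with WT CDK9 cells, and at such counts changes of moderate size were not detectable.

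Of the long genes, 7 passed the test in both comparisons with WT CDK9 cells, 3 lower in both, 3 higher in both and 1 in opposite directions. UTRN, KAZN and SHANK2 were lower in both. UTRN (chr6:144285701-144853034) codes for utrophin, a relative of dystrophin that links actin to the membrane. It had 223, 216 and 218 CPM in WT CDK9 cells, 175, 183 and 172 CPM with the ALK inhibitor and 184, 178 and 177 CPM in Y19F CDK9 cells. Every treated and every mutant library lay below every WT CDK9 library. The log2 fold changes were -0.31 with the inhibitor (SE 0.05, adjusted p = 1.36e-05) and -0.29 with Y19F CDK9 (SE 0.04, adjusted p = 1.32e-05, both by edgeR).

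KAZN (chr1:13892792-15118043), a desmosome-associated protein of the periplakin network, had 86.8, 80.7 and 86.7 CPM in WT CDK9 cells. It had 66.2, 70.9 and 61.1 CPM with the inhibitor and 67.8, 62.1 and 64.3 CPM in Y19F CDK9 cells, again with no overlap with WT CDK9 cells. It fell by 0.36 on the log2 scale with the inhibitor (adjusted p = 0.000798 by edgeR) and by 0.39 with Y19F CDK9 (adjusted p = 7.05e-05). In GENCODE 44, 24.9% of its exonic bases are shared with another gene, so its counts are uncertain to that extent. SHANK2 (chr11:70467856-71252577), a postsynaptic density scaffold, had 31.4, 31.6 and 33.0 CPM in WT CDK9 cells, 19.8, 24.3 and 21.5 CPM with the inhibitor and 18.6, 17.5 and 21.7 CPM in Y19F CDK9 cells. It had the larger changes of these genes, 0.682-fold (log2 fold change -0.55, SE 0.11, adjusted p = 0.0012 by edgeR) and 0.602-fold (log2 fold change -0.73, SE 0.11, adjusted p = 5.53e-06).

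MECOM, SPOCK1 and KCNMA1 were higher in both. MECOM (chr3:169083499-169663618), a zinc finger transcription factor often amplified in ovarian cancer, had 126, 122 and 119 CPM in WT CDK9 cells, 167, 182 and 177 CPM with the inhibitor and 139, 137 and 144 CPM in Y19F CDK9 cells. The inhibitor-treated libraries were the highest of all. Its log2 fold changes were 0.52 (SE 0.05, adjusted p = 9.84e-09 by edgeR) and 0.19 (SE 0.05, adjusted p = 0.00613), and Y19F CDK9 cells lay below inhibitor-treated cells (log2 fold change -0.32, adjusted p = 1.02e-05).

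SPOCK1 (chr5:136975298-137598379), a secreted matrix proteoglycan, had 35.9, 37.6 and 41.2 CPM in WT CDK9 cells, 48.9, 45.6 and 45.6 CPM with the inhibitor and 66.5, 66.3 and 64.9 CPM in Y19F CDK9 cells. The 3 groups did not overlap. It was 1.72-fold higher with Y19F CDK9 (log2 fold change 0.78, SE 0.08, adjusted p = 2.48e-09 by edgeR) and 1.22-fold higher with the inhibitor (log2 fold change 0.29, SE 0.08, adjusted p = 0.024). KCNMA1 (chr10:76869601-77638369), the calcium-activated BK potassium channel, had 12.8, 20.3 and 19.97 CPM in WT CDK9 cells, 27.3, 23.2 and 22.2 CPM with the inhibitor and 25.4, 30.2 and 29.8 CPM in Y19F CDK9 cells. WT replicate 1 stood below the others of its group. The log2 fold changes were 0.46 with the inhibitor (adjusted p = 0.0437 by edgeR) and 0.69 with Y19F CDK9 (adjusted p = 0.000237).

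The inhibitor calls of SPOCK1 and KCNMA1 were each lost in 4 of 6 fits with 1 library left out. For SPOCK1 the adjusted p was 0.155 without WT replicate 1, 0.0766 without WT replicate 2, 0.126 without ALK inhibitor replicate 1 and 0.0531 without ALK inhibitor replicate 3. For KCNMA1 it was 0.357 without WT replicate 1, 0.238, 0.0705 and 0.056 without ALK inhibitor replicates 1, 2 and 3. The calls of the other 5 genes held in all 6 fits of each comparison.

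NRG1 (chr8:31639386-32767959), which codes for neuregulin 1, a ligand of the ERBB3 and ERBB4 receptors, went in opposite directions. It had 102, 105 and 105 CPM in WT CDK9 cells, 93.6, 80.3 and 82.0 CPM with the inhibitor and 126, 124 and 118 CPM in Y19F CDK9 cells. The WT CDK9 libraries lay between the other groups with no overlap. Its log2 fold changes were -0.28 (SE 0.06, adjusted p = 0.00319 by edgeR) and 0.24 (SE 0.06, adjusted p = 0.00382), and the direct difference between Y19F CDK9 and inhibitor-treated cells was 0.52 (SE 0.06, adjusted p = 5.64e-08).

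**Figure D3:**
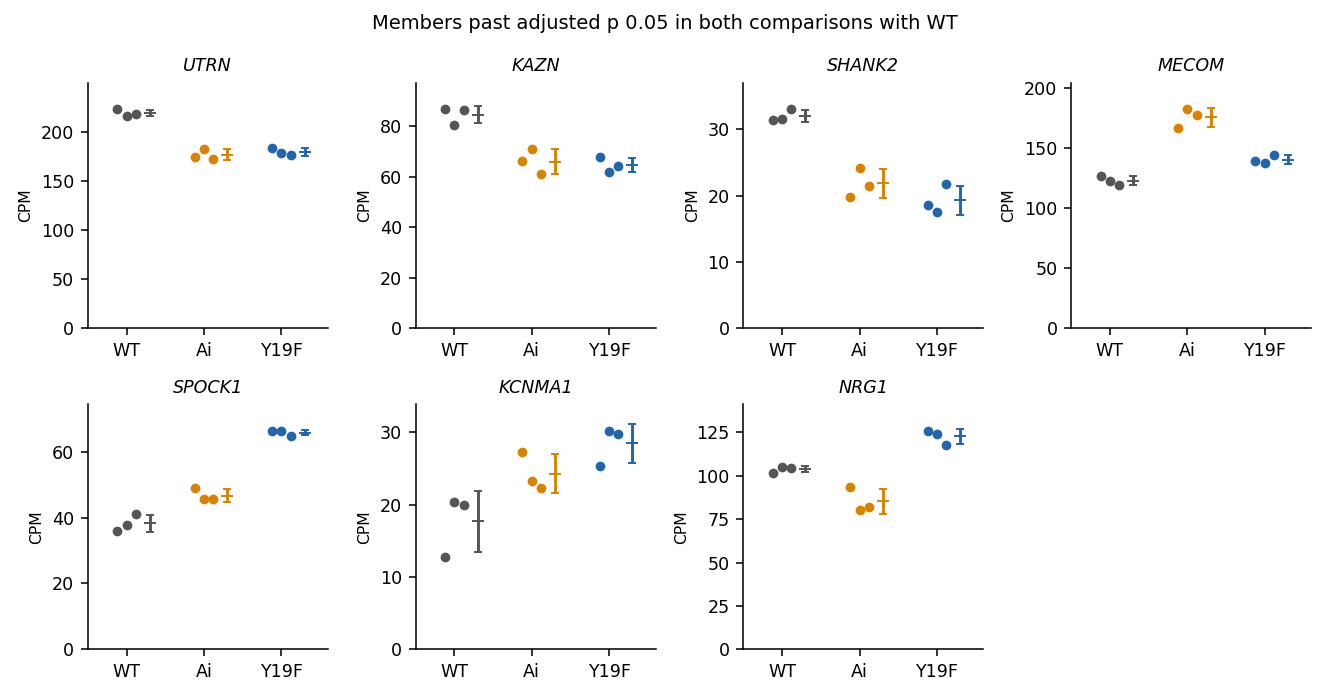
CPM (vertical axis, from 0) of the 7 long genes past an adjusted p of 0.05 in both comparisons, by library (points) with mean and SD (bars, n = 3), in WT CDK9 cells (grey), ALK inhibitor-treated cells (Ai, orange) and Y19F CDK9 cells (blue). UTRN, KAZN and SHANK2 lie lower and MECOM, SPOCK1 and KCNMA1 higher than WT in both other groups; NRG1 is lowest with the inhibitor and highest with Y19F CDK9.

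The stretch just before a RefSeq start (GRCh38.p14) is shown for UTRN, KAZN, MECOM and KCNMA1, which moved the same way in both comparisons. RefSeq gives UTRN 2 starts, KAZN 4, MECOM 3 and KCNMA1 2, and the first listed was taken. Each is 250 bases, 5′ to 3′ on the gene's strand, with capitals for GGGCGG, the core of the GC box, or its reverse complement CCGCCC; overlapping copies run together. They are chr6:144285085-144285334 on the plus strand for UTRN, chr1:14598435-14598684 on the plus strand for KAZN, chr3:169663713-169663962 on the minus strand for MECOM and chr10:77637809-77638058 on the minus strand for KCNMA1.
UTRN: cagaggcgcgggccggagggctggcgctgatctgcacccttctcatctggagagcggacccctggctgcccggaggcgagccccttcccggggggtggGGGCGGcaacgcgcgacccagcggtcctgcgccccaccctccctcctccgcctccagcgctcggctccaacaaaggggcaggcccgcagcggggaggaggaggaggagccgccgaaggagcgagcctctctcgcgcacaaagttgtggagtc
KAZN: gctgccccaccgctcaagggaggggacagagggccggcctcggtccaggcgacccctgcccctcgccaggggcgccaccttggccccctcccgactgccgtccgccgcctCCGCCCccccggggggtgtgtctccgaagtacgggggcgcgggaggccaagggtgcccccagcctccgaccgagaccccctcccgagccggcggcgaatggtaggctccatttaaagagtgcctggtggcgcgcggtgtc
MECOM: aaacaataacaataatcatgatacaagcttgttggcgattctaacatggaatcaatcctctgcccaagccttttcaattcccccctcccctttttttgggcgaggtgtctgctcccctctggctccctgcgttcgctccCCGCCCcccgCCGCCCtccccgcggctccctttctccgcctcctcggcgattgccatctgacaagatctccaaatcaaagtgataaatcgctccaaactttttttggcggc
KCNMA1: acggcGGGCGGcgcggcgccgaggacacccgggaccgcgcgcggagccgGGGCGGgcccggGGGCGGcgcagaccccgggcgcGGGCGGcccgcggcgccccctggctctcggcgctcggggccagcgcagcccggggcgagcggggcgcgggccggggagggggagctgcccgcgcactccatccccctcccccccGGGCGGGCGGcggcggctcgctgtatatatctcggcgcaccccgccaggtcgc
KCNMA1 held 6 copies and MECOM 2, and UTRN and KAZN 1 each. None of the 4 held the TATA box TATAAA, the CCAAT box, the E-box CACGTG, the AP-1 motif TGACTCA, the cyclic AMP response motif TGACGTCA or the TEAD motif GGAATG on either strand. Only these exact letters were searched, and variants such as the tatatat near the end of the KCNMA1 stretch were not counted. The start given for KAZN lies 705893 bases inside the listed gene, whose count therefore covers transcripts from more than this start.

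Over whole promoter windows of 250 bases before and 50 after the first start listed, 1 per gene, 245 of the 296 long genes matched an entry. GGGCGG or its complement occurred in 54.4% of the 147 tested long genes matched and in 44.6% of the promoters of all 27305 genes. It occurred in 24 of 30 promoters of long genes called lower in Y19F CDK9 cells (80.0%) and in 5 of 13 of those called higher (38.5%). The median number of CG dinucleotides was 31.5 and 12 in these sets, 24 over the tested long genes and 14 over all promoters. TATAAA, the TATA box, was in 1 of the 30 and 2 of the 13 (11.95% of all promoters). CCAAT was in 27.2% of the tested long genes against 35.7% of all promoters, CACGTG in 6.80% against 7.43%, TGACTCA in 2.04% against 4.92%, TGACGTCA in 2.04% against 1.98% and GGAATG in 11.6% against 14.05%. Motifs were counted on both strands, and these are shares of letters with no test.

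The other long genes called with the inhibitor were PDE1C, MCTP1 and IQCJ-SCHIP1, which were lower, and KIAA1217 and SYT1, which were higher. PDE1C, a calmodulin-dependent cyclic nucleotide phosphodiesterase, had 69.4, 75.5 and 74.8 CPM in WT CDK9 cells, 50.9, 50.3 and 49.4 CPM with the inhibitor and 69.0, 68.8 and 75.7 CPM in Y19F CDK9 cells. Only the inhibitor group stood apart. It fell by 0.54 on the log2 scale with the inhibitor (SE 0.07, adjusted p = 1.68e-06 by edgeR) and had -0.04 with Y19F CDK9 (adjusted p = 0.748), and the direct difference of the latter from the former was 0.50 (adjusted p = 1.45e-06).

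The remaining 4 calls with the inhibitor were each lost when some single library was left out. MCTP1, a calcium-binding membrane protein, fell by 0.41 on the log2 scale (adjusted p = 0.0116 by edgeR), with adjusted p = 0.0799 without WT replicate 1 and 0.158 without ALK inhibitor replicate 1. The read-through gene IQCJ-SCHIP1 fell by 0.40 (adjusted p = 0.0185), which was lost without WT replicate 2 (0.129), WT replicate 3 (0.0585), ALK inhibitor replicate 2 (0.0923) or ALK inhibitor replicate 3 (0.0951). It shares 43.4% of its exonic bases with other genes, and SCHIP1, which lies inside it, was called lower as well. KIAA1217, a gene of the developing skeleton, had 4.36, 4.11 and 5.34 CPM in WT CDK9 cells and 7.59, 8.34 and 8.31 CPM with the inhibitor (log2 fold change 0.81, adjusted p = 0.0127), lost without WT replicate 1 (0.0666), WT replicate 2 (0.0648) or ALK inhibitor replicate 3 (0.0533). SYT1, the calcium sensor of vesicle release, had 1.32 to 2.19 CPM and 2.53 to 5.27 CPM (log2 fold change 1.11, adjusted p = 0.0458). Its call was lost without WT replicate 1, 2 or 3 (0.083, 0.194 and 0.0583) and without ALK inhibitor replicate 1 or 2 (0.143 and 0.232).

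Of the long genes lower in Y19F CDK9 cells, the smallest adjusted p belonged to SORCS2, DLC1 and PTPRK. SORCS2, a sorting receptor of the VPS10 family, had 62.3, 61.4 and 60.9 CPM in WT CDK9 cells, 67.4, 64.4 and 65.1 CPM with the inhibitor and 36.1, 34.7 and 37.95 CPM in Y19F CDK9 cells. All inhibitor-treated libraries lay above WT and all mutant libraries far below. The Y19F change was 0.589-fold (log2 fold change -0.76, SE 0.07, adjusted p = 1.53e-09 by edgeR). DLC1 had 353, 351 and 360 CPM in WT CDK9 cells, 348, 334 and 351 CPM with the inhibitor and 275, 255 and 263 CPM in Y19F CDK9 cells. It was thus the most abundant long gene and fell by 0.42 on the log2 scale (SE 0.04, adjusted p = 2.28e-09), with -0.04 with the inhibitor (adjusted p = 0.715).

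PTPRK had 216, 214 and 222 CPM in WT CDK9 cells, 219, 235 and 209 CPM with the inhibitor and 163, 149 and 143 CPM in Y19F CDK9 cells. The mutant libraries lay below all others, with a fall of 0.52 on the log2 scale (SE 0.05, adjusted p = 3.8e-09 by edgeR). LRBA, a BEACH-domain protein of vesicle traffic, had 80.6, 81.2 and 83.8 CPM in WT CDK9 cells and 55.0, 47.0 and 58.3 CPM in Y19F CDK9 cells (log2 fold change -0.62, adjusted p = 3.13e-07). The other tested genes within 5 Mb of LRBA on chromosome 4 had a median of -0.34 in the same comparison. ADGRL2, a latrophilin adhesion receptor, fell by 0.43 on the log2 scale (adjusted p = 2.14e-06), and GSE1, a proline-rich coiled-coil nuclear protein, by 0.77 (adjusted p = 6.06e-06). The canonical transcripts of DLC1, ADGRL2 and GSE1 span 431, 193 and 62.9 kb, under the limit of 500 kb.

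DPYD, the rate-limiting enzyme of pyrimidine breakdown, had 125, 127 and 129 CPM in WT CDK9 cells, 130, 141 and 141 CPM with the inhibitor and 108, 101 and 99.4 CPM in Y19F CDK9 cells. The groups did not overlap in either comparison, and it passed the test with Y19F CDK9 (log2 fold change -0.30, adjusted p = 8.64e-05 by edgeR) and not with the inhibitor (log2 fold change 0.11, adjusted p = 0.306). PRKCA fell by 0.32 (adjusted p = 1.38e-05) and DOCK1 by 0.24 (adjusted p = 0.00327). PARD3 and PTPRM, equally abundant, had log2 fold changes of -0.0012 and 0.02 (adjusted p = 0.992 and 0.877).

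The long genes higher in Y19F CDK9 cells were fewer. Their median log2 fold change was 0.45, and that of the long genes called lower was -0.43. SDK1, an immunoglobulin-type adhesion molecule of synapses, had 7.28, 6.69 and 8.54 CPM in WT CDK9 cells, 8.87, 10.3 and 8.21 CPM with the inhibitor and 18.6, 16.6 and 21.4 CPM in Y19F CDK9 cells. It was 2.51-fold higher (log2 fold change 1.33, SE 0.15, adjusted p = 6.02e-08 by edgeR). PTPRD had 9.12, 8.65 and 8.17 CPM in WT CDK9 cells, 6.87, 6.58 and 7.28 CPM with the inhibitor and 19.9, 14.97 and 17.7 CPM in Y19F CDK9 cells. It was 2.03-fold higher with Y19F CDK9 (log2 fold change 1.02, SE 0.15, adjusted p = 4.14e-06). With the inhibitor its groups did not overlap either, at a log2 fold change of -0.32 (adjusted p = 0.328).

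TENM4, a teneurin adhesion receptor, had 3.95, 5.11 and 2.51 CPM in WT CDK9 cells and 14.7, 9.28 and 10.4 CPM in Y19F CDK9 cells, the largest rise called (log2 fold change 1.57, SE 0.23, adjusted p = 3.9e-06 by edgeR). FRMD4A, a scaffold of cell polarity, had 8.20, 9.01 and 4.96 CPM and 14.3, 14.2 and 16.7 CPM in these groups (log2 fold change 1.03, adjusted p = 7.94e-05). The zinc finger protein gene HIVEP3 had 29.8, 31.4 and 39.9 CPM and 50.6, 45.8 and 46.1 CPM (log2 fold change 0.50, adjusted p = 0.000363). For all 5 the mutant libraries lay above all WT CDK9 libraries.

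**Figure D4:**
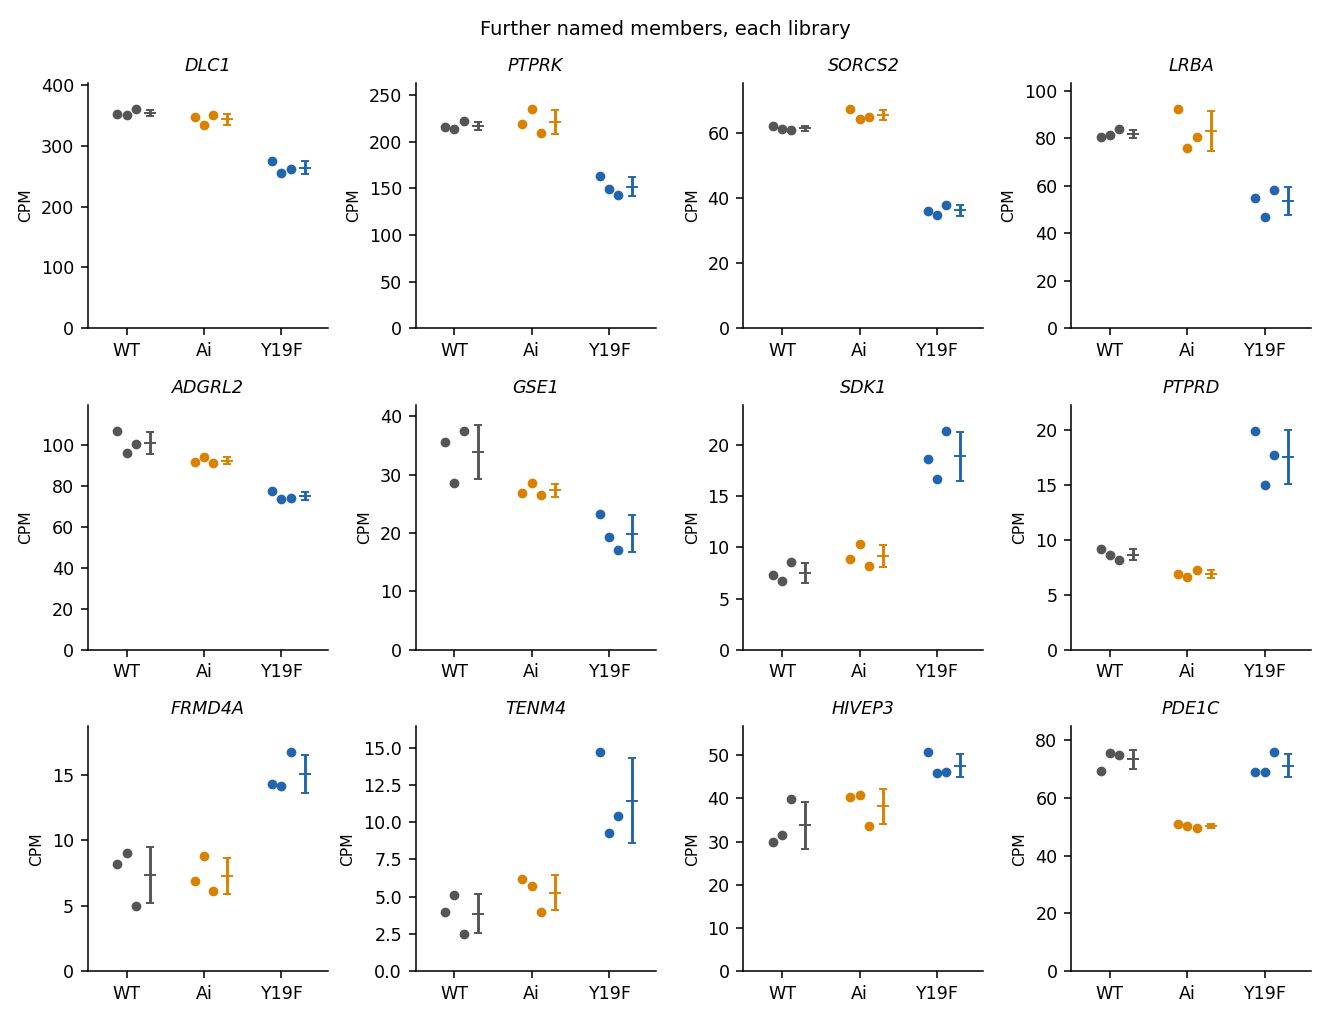
CPM (vertical axis, from 0) of 12 further long genes by library (points) with mean and SD (bars, n = 3), in WT CDK9 cells (grey), ALK inhibitor-treated cells (Ai, orange) and Y19F CDK9 cells (blue). DLC1, PTPRK, SORCS2, LRBA, ADGRL2 and GSE1 are lowest and SDK1, PTPRD, FRMD4A, TENM4 and HIVEP3 highest in Y19F CDK9 cells; PDE1C is lower only with the inhibitor.

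The long genes were also grouped by role, and differences between the groups were not tested. The shares called lower in Y19F CDK9 cells to read these counts against are 10.4% of all tested genes and 21.6% of the long genes. Log2 fold changes below 0 were seen for 49.4% of all tested genes and 64.9% of the long genes. All 11 tested vesicle traffic genes had log2 fold changes below 0 in Y19F CDK9 cells, with a median of -0.21, and 6 of them were called lower, EXOC6B, LRBA, NBEA, SCAPER, SNX29 and VPS13B. With the inhibitor none of them was called, and 1 of 11 lay below 0. EXOC6B, an exocyst subunit, was near the threshold (log2 fold change -0.20, adjusted p = 0.0429 by edgeR) and was lost without WT replicate 1 (0.125), WT replicate 3 (0.292), Y19F replicate 1 (0.15) or Y19F replicate 3 (0.121). The call of SCAPER held in 3 of 6 fits with 1 library left out. TBC1D5, a Rab GTPase-activating protein, had -0.13 (adjusted p = 0.123).

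Of 13 tested genes at common fragile sites, DPYD, IL1RAPL1, MACROD2 and NBEA were called lower in Y19F CDK9 cells and 0 higher. These 4 of 13 stand beside the 37 of 171 long genes called lower. The median of the 13 was -0.45, and 12 of 13 lay below 0, beside 111 of the 171 long genes. With the inhibitor their median was 0.21 and none was called. IL1RAPL1, a synaptic adhesion molecule, had 11, 12 and 16 counts in WT CDK9 cells and 0, 3 and 3 counts in Y19F CDK9 cells, at or under a floor of 3 counts. It also had 0 counts in ALK inhibitor replicate 2, beside 12 and 16 in the others of that group. Its Y19F call held in 0 of 6 fits with 1 library left out.

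Of the 12 tested scaffold and polarity genes, GPHN, PARD3B and SHANK2 were called lower and FRMD4A higher with Y19F CDK9, with a median of -0.46. LPP, the most abundant of them, had log2 fold changes of -0.11 with Y19F CDK9 (adjusted p = 0.158 by edgeR) and -0.11 with the inhibitor (adjusted p = 0.328). Of 19 tested transcription factor and chromatin genes, NFIA was lower and MECOM higher, with 13 of 19 below 0 and a median of -0.23. The calls of GPHN and NFIA held in 1 and 2 of 6 fits with 1 library left out. CAMTA1 had a log2 fold change of 0.03 (adjusted p = 0.871). Of 17 metabolic and housekeeping enzymes, DPYD and MACROD2 were lower and none higher, with a median of -0.22, and GMDS had 0.01 (adjusted p = 0.951).

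The medians of the remaining groups lay on both sides of 0. Of 14 synaptic and cell-surface adhesion genes, ADGRL2, IL1RAPL1 and TENM3 were lower and SDK1 and TENM4 higher with Y19F CDK9, with a median of 0.0056. TENM3 (log2 fold change -0.24, adjusted p = 0.000823 by edgeR) lay in a stretch of chromosome 4 whose other genes had a median of -0.22. Of 15 ion channel, transmitter receptor and release genes, KCNMA1 and SLC24A3 were higher and none lower, with a median of 0.06, and the glutamate receptor gene GRID1 had -0.09 (adjusted p = 0.575).

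Of 10 matrix and glycan genes, GPC6, a glypican (log2 fold change -0.35, adjusted p = 0.00117 by edgeR), was lower and SPOCK1 and THSD4 were higher, with a median of 0.33. Of 13 cyclic nucleotide, calcium and lipid signalling genes, DENND1A, PRKCA and RABGAP1L were lower and PDE10A and PDE4D higher, with a median of -0.11. The calls of PDE10A and PDE4D held in 3 and 2 of 6 fits with 1 library left out. Of 6 receptor phosphatases, receptor kinases and their ligands, PTPRK was lower and NRG1 and PTPRD were higher, with a median of -0.02. This group left out the receptor kinase gene EPHB1, another tested long gene. EPHB1 was called lower in Y19F CDK9 cells (log2 fold change -1.19, adjusted p = 2.89e-05 by edgeR), with no overlap with WT CDK9 cells. Its call held in all 6 fits with 1 library left out. The RNA-binding protein gene RBMS3, the 1 tested of its kind, had -0.40 (adjusted p = 0.0586). The 11 groups held 119 of the 171 tested long genes, and a gene may stand in more than one.

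With the inhibitor the groups held 0 to 2 calls each. These were SHANK2 among scaffolds, NRG1 among the receptor phosphatases and kinases, PDE1C in cyclic nucleotide signalling, MECOM among transcription factors, SPOCK1 in the matrix group and KCNMA1 and SYT1 among channels and release. The group medians ran from -0.23 for the single RNA-binding gene to 0.21.

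**Figure D5:**
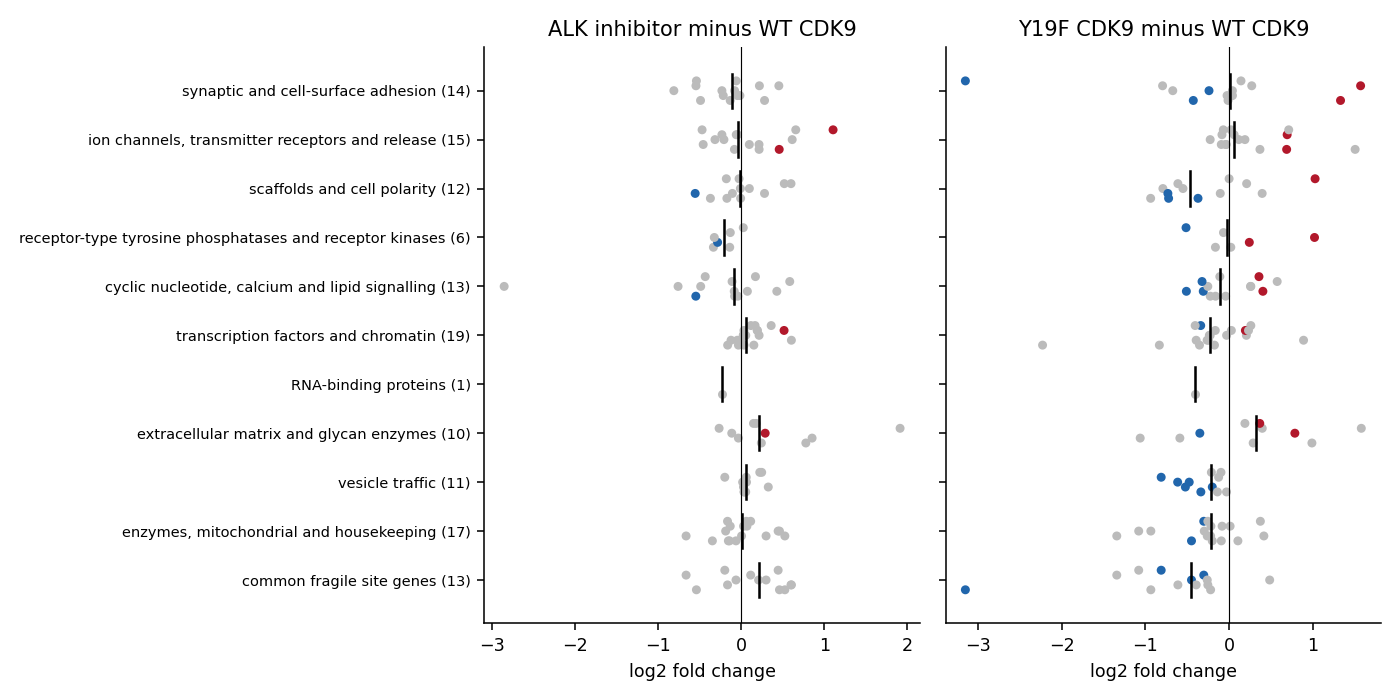
Log2 fold change (horizontal axis) of tested long genes by role group (number tested in brackets), for the ALK inhibitor and for Y19F CDK9 against WT CDK9, with genes past an adjusted p of 0.05 in blue (lower) or red (higher) and the group median as a black line. With Y19F CDK9 all 11 vesicle traffic genes and 12 of 13 fragile site genes lie below 0.

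Genes around the long genes were taken for comparison. For each tested long gene, the median log2 fold change of the other tested genes centred within 5 Mb was taken. The median of these values was -0.02 in Y19F CDK9 cells, against -0.13 for the long genes themselves, and 102 of the 171 lay below their neighbours. A median over many neighbours varies less than a single gene. TENM3 lay close to its neighbours, at -0.24 against -0.22. GPHN had -0.37 and its neighbours -0.21. FRMD4A had 1.03 and its neighbours 0.29, the highest of these neighbour medians. With the inhibitor the neighbours' median was -0.0035 and 89 of 171 long genes lay below it.

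A further comparison within the same locus came from genes that lie wholly inside a long gene. Of 854 such genes listed, 37 were tested, 11 of them protein-coding, in 10 hosts. In Y19F CDK9 cells the nested protein-coding genes had a median of 0.07 on the log2 scale and their hosts -0.13, and 8 of 11 lay above their host. With the inhibitor these medians were 0.10 and -0.04, and 7 of 11 lay above their host. FLRT3, an adhesion gene of 14.6 kb inside MACROD2 on the other strand, was called higher (log2 fold change 0.70) while MACROD2 was called lower. MAB21L1 inside NBEA had 0.57 against -0.81 for NBEA, and SPTSSA inside EGLN3 on the same strand had -0.16 against -0.61. MAB21L1, at a mean of 0.833 CPM, was not called. Neither SPTSSA nor EGLN3 was called. EGLN3 had 4 to 31 counts per library (SE 0.70), and its canonical transcript spans 26.8 kb. The reverse held inside SUMF1, which was called higher (log2 fold change 0.26), where LRRN1 had -0.02 and SETMAR -0.19. The call of SUMF1 held in 2 of 6 fits with 1 library left out. Whether counting used strand was not given in the sources used here, and reads of overlapping genes on opposite strands could then not be told apart.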

How the data were processed

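Total RNA of SKOV3 cells was sequenced in 3 groups of 3 libraries. Per the labels, the submitters' processing notes name CASAVA, HISAT2 2.0.5 and featureCounts 1.5.0-p3 with GRCh38 (hg38). The annotation, the strand setting and the selection of RNA are not given in the sources used here. The authors deposited raw counts per gene and library, with each gene's position, exonic length and biotype. Replicates were numbered in the labels, nothing says that they were separate cultures, and p-values then measure only the spread between these libraries.

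Span was the listed end minus start. Genes passed edgeR's filterByExpr (minimum count 10, minimum total 15), libraries were scaled by TMM, and edgeR's quasi-likelihood test was run with a mean for each group over the 9 libraries (edgeR 4.0.16, R 4.3.3, 6 residual degrees of freedom). P-values were adjusted by Benjamini-Hochberg over all tested genes. CPM values were TMM-scaled. Medians, shares, span classes, role groups, neighbours and motifs are descriptions without a test. GENCODE 44 gave canonical transcripts, GC content and exon overlap, and RefSeq the promoters (GRCh38.p14). A floor of 3 counts corresponded to 0.101 to 0.165 CPM and covers counting error only. The code was tested on simulated counts.

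The rule for the long genes and the hand-written role groups were chosen with earlier results of these data known. Genes named are those called in both comparisons with WT CDK9 cells, the 8 with the smallest adjusted p per direction and comparison with WT among called genes of at least 1 CPM, the 5 per direction in the direct comparison, the 8 longest, the 8 highest in RPKM and the 2 most abundant of each role group. Other genes named in counts were chosen after their values were seen. A further role group is not reported here. Promoter sequences of SPOCK1 and SHANK2 were not used here. Alternatives were DESeq2 1.42.0 and its size factors, other filters, protein-coding genes alone, a replicate block, the compared groups alone, removal of exonic length trends, each library left out, spans of 400 and 750 kb and no names left out. Removal of GC and length trends together, and membership by canonical transcript, were added after seeing the data.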

Additional observations from a re-analysis of the deposited data

How the results depend on the processing

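In Y19F CDK9 cells more tested long genes were called lower than higher, and their median log2 fold change was below 0, under every alternative run. Counts under DESeq2 were 35 lower and 13 higher with Y19F CDK9 and 8 and 6 with the inhibitor. With spans of at least 400 kb, 14 were called lower with the inhibitor, 71 with Y19F CDK9 and 69 in Y19F CDK9 against inhibitor-treated cells, of 283 tested. With spans of at least 750 kb, of 66 tested, 4 were lower and 2 higher with the inhibitor, 13 lower and 8 higher with Y19F CDK9 (median -0.048), and 9 lower and 8 higher in the direct comparison; these limits change the number of genes. The direct comparison's median was -0.12 with the exonic length trend removed and -0.10 with GC content as well. With 1 library left out and the filter repeated (175 to 178 long genes tested), the inhibitor gave 6 to 9 lower, 1 to 5 higher and medians of -0.04 to 0.03, Y19F CDK9 29 to 33 lower, 10 to 16 higher and medians of -0.17 to -0.11, and the direct comparison 24 to 31 lower, 9 to 12 higher and medians of -0.18 to -0.14. Over the 171 genes alone these medians reached 0.04 with the inhibitor and -0.19 in the direct comparison. No paired structure was found: correlations of same-numbered libraries were -0.012 to 0.026, and a replicate block gave 9 lower and 5 higher with the inhibitor (medians -0.0091 and, with Y19F CDK9, -0.13) and 39 and 16 with Y19F CDK9. Of the comparisons of named genes under alternatives, 1259 stayed on their side of the threshold, 38 lost it and 12 passed it, and no call changed sign. Those that passed included PARD3, not called with the inhibitor in the main fit. It was lower with the inhibitor under DESeq2 (log2 fold change -0.18, adjusted p = 0.0425) and with a replicate block (adjusted p = 0.0423 by edgeR), among other settings, but not in all. Of the 27 long genes under 1 CPM, 1 was called with Y19F CDK9 and 3 in the direct comparison.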
